A study of Medicago truncatula with 14 samples.

Results

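The regions described here are NIN binding regions that stand next to an LSH1 binding region on the same chromosome without touching it. NIN (NODULE INCEPTION) and LSH1 (LIGHT SENSITIVE SHORT HYPOCOTYL 1) were each expressed as a GFP fusion from the LjUBI promoter in transformed hairy roots of Medicago truncatula, ecotype jemalong, cultivar Jester. Roots were 3 weeks old and were kept under non-symbiotic conditions, and chromatin immunoprecipitation followed by sequencing was used to map where each protein bound. The tested material comprised 3 NIN immunoprecipitations and 4 LSH1 immunoprecipitations, and each had a control library of the same replicate number, 14 libraries in all. The labels give the controls the overexpression genotype of their immunoprecipitation, while the protocol also names a nuclear GFP construct as control, so the material of the controls is not settled here. As a model these roots carry the proteins under a ubiquitin promoter, outside a nodule, in transformed tissue. The labels do not say that replicates were grown apart, so the p-values below measure the spread between lists, which may be technical.

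Peaks of the 3 NIN lists were merged where they overlapped by at least 1 bp, likewise those of the 4 LSH1 lists, and a merged region was kept when at least 2 lists of its protein had a peak in it and it lay on chromosomes 1 to 8. This left 17194 NIN regions and 16700 LSH1 regions. Among them, 471 NIN regions shared at least 1 bp with an LSH1 region, 1048 shared none but had one with its nearest edge 2000 bp or less away, and 15675 had none that near. The 1048 are called adjacent NIN regions, and they make up 6.10% of all NIN regions. Their nearest LSH1 regions, 982 in number, are called partner regions, of which 918 had 1 adjacent NIN region, 62 had 2 and 2 had 3 or more. The adjacent regions were chosen by the measured positions of the NIN and LSH1 peaks in all 7 lists, so distances, overlaps and their ratios to shifted regions are given as a description, with no test. Just inside the limit the edge distances were 1997, 1998 and 1999 bp, and just outside it 2005, 2007 and 2007 bp. Edge distances are counted so that regions that adjoin are 1 bp apart.

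NIN is a transcription factor of the RWP-RK family that legumes need for rhizobial infection and for the start of nodule organogenesis, and genes of NF-Y subunits are among its known targets. LSH1 belongs to the ALOG family of plant proteins with a DNA-binding domain, which act on organ identity and on the boundaries of meristems. Transcription factors that act on the same genes may sit on shared DNA, side by side in the same regulatory region, or far apart, and the edge distance between their regions separates these arrangements. A ChIP-seq peak is wider than the bound site, because DNA is sheared into fragments, so a short gap between peaks does not give the gap between bound sites.

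The lists differed in length. NIN replicates 1, 2 and 3 had 14021, 28825 and 84178 peaks, and the LSH1 replicates 18750 to 25127. NIN list 3 stood apart also in its covered length, 52.7 Mb against 4.04 and 9.13 Mb in the other NIN lists and 6.77 to 10.3 Mb in the LSH1 lists, and its median peak was 455 bp wide against 272 bp in list 2 and less in list 1. No height, fold or q-value was deposited with the peaks, and the depth of the libraries is unknown here.

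NIN regions lay beside LSH1 regions less often than the same regions did after a shift along their chromosome, and the gap was widest for the closest positions. All NIN regions were moved by 20, 40, 60, 80 and 100 kb to either side, which keeps their widths and chromosomes. Their position relative to coding genes was not kept, and shifted regions lay near gene ends more often than NIN regions did. How much of the ratio goes with this was not tested, and ratios by gene position are given further below. The 1048 adjacent NIN regions compared with 1376 to 1498 by the same rule after the 10 shifts, a mean of 1441.2, which is a ratio of 0.727. None of the 10 shifts gave a number as low as the one observed.

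By distance, 75 NIN regions lay 1 to 250 bp from an LSH1 region where the shifts gave a mean of 200.8 and a range of 180 to 218, a ratio of 0.374. Above 250 and up to 500 bp there were 150 against a mean of 194.5 for shifted regions, a ratio of 0.771. From there to 1000 bp there were 273 against 374.5, a ratio of 0.729, and from 1000 to 1500 bp 265 against 348.6, a ratio of 0.760. In the last step, up to 2000 bp, there were 285 against 322.8, and the ratio was 0.883, nearer to 1. Beyond the limit the ratio was 0.975 up to 5000 bp and 1.01 from there to 10000 bp, and both counts lay within the range of the shifts, although single steps of 250 bp, such as the 115 regions from 2500 to 2750 bp, did not all do so. Between 10000 and 20000 bp the 2961 NIN regions were more than the 2581 to 2774 of the shifts, a ratio of 1.09, and beyond 20000 bp the 8962 were more than the 8370 to 8827 of the shifts, a ratio of 1.05. Overlap, at 471 against 745.6 regions, had a ratio of 0.632, so that the low point of the profile lay next to LSH1 regions and not on them. Seen from the other side, LSH1 regions with a NIN region 1 to 250 bp away numbered 83 against 215.7 after the same shifts, a ratio of 0.385. The median edge distance of the adjacent NIN regions was 1047 bp, and their closest approach was 3 bp.

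**Figure D1:**
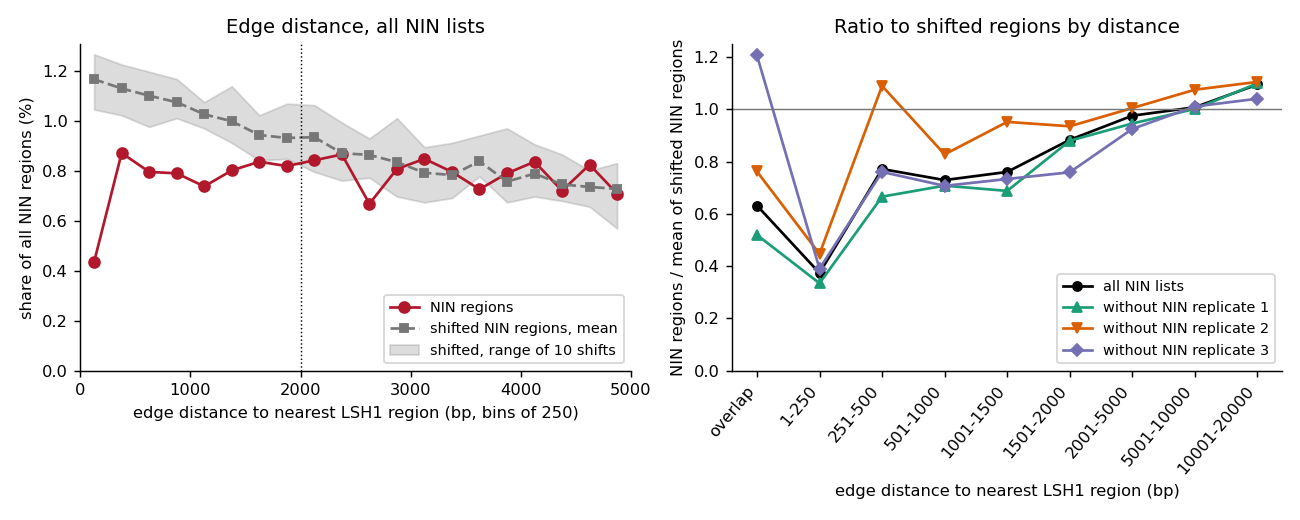
Left, share of all NIN regions (%) by edge distance to the nearest LSH1 region (bp, bins of 250 bp), for NIN regions (circles) and for shifted NIN regions (squares, mean of 10 shifts, with their range shaded); the dotted line is the limit of 2000 bp. Right, ratio of NIN regions to the mean of shifted NIN regions by distance, for all NIN lists and with each NIN list left out. The ratio is lowest at 1 to 250 bp, at 0.374 with all lists, and is near 1 beyond 2000 bp.

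The low ratio next to LSH1 regions did not rest on the long NIN list 3, while the ratio for overlap did depend on it. Without NIN replicate 3 there were 2837 NIN regions, of which 180 (6.34%) were adjacent where the shifts gave 9.21%, a ratio of 0.689. At 1 to 250 bp there were 14 against a mean of 35.9, a ratio of 0.390. Overlap had a ratio of 1.21, and its 120 regions lay within the range of the shifts, 73 to 126. Without NIN replicate 1 the ratio was 0.684 for all adjacent regions and 0.334 at 1 to 250 bp. Without NIN replicate 2 it was nearer to 1, at 0.864, with 0.447 at 1 to 250 bp and 1.09 above 250 and up to 500 bp. Over the 3 sets that leave out a NIN list, the ratio at 1 to 250 bp thus lay between 0.334 and 0.447 and was below that of overlap in each.

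Single lists, with no merging, also had lower ratios at 1 to 250 bp than up to 2000 bp. Each NIN list was set against each LSH1 list, which makes 12 pairs that share lists and are not independent. The share of NIN peaks beside an LSH1 peak at up to 2000 bp, over that of shifted peaks, was 0.850 to 0.936 for NIN list 1, 0.682 to 0.789 for NIN list 2 and 0.855 to 0.895 for NIN list 3. At 1 to 250 bp the ratios were 0.666 to 0.669 for NIN list 1, 0.475 to 0.647 for NIN list 2 and 0.585 to 0.604 for NIN list 3. All 12 pairs were below 1 at both distances, and all 12 were lower at 1 to 250 bp. Overlap of the same peaks went both ways: it was above that of shifted peaks in all 4 pairs of NIN list 1 (1.22 to 1.84), in 3 of 4 pairs of NIN list 2 and in none of the 4 of NIN list 3 (up to 0.984). Against the LSH1 regions the 3 NIN lists had ratios of 0.856, 0.642 and 0.891 up to 2000 bp, a mean of 0.796 ± 0.135 (SD, n = 3), and a mean of 0.480 ± 0.117 (SD, n = 3) at 1 to 250 bp.

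**Figure D2:**
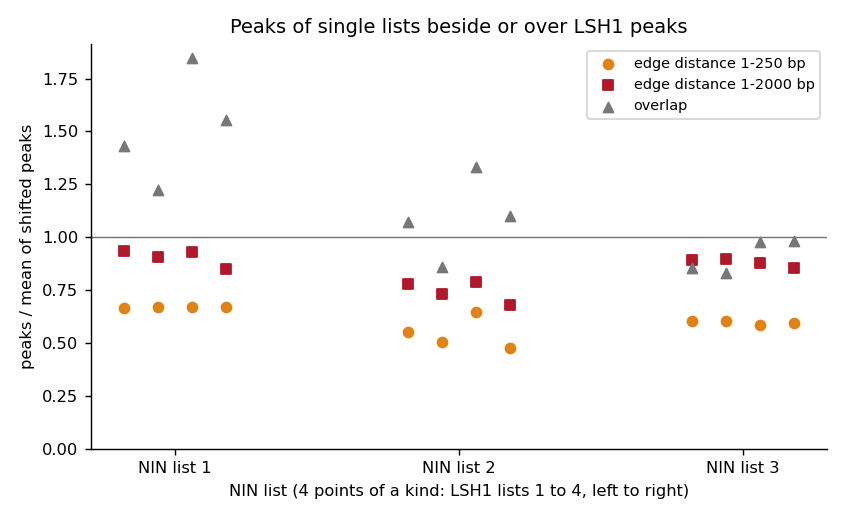
Peaks of each NIN list beside or over peaks of each LSH1 list, divided by the mean of the shifted NIN peaks (vertical axis, 1 marks equal numbers); each symbol is 1 pair of lists. Circles (1 to 250 bp) lie below squares (1 to 2000 bp) in all 12 pairs, and triangles (overlap) lie on both sides of 1.

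Adjacent regions came from each combination of NIN lists. Of the 1048, 537 had peaks in replicates 2 and 3 only (51.2%), 298 in replicates 1 and 3 only (28.4%), 77 in replicates 1 and 2 only (7.35%) and 136 in all 3 lists (13.0%). Among the other NIN regions these shares were 63.1%, 18.2% and 6.65%, with 1883 of 15675 in all 3 lists, so that the adjacent set held more regions of replicates 1 and 3 and fewer of replicates 2 and 3. The share of adjacent regions was 9.07% in the class of replicates 1 and 3, where shifts gave 10.2%, and 5.05% in the class of replicates 2 and 3, where shifts gave 7.72%. The ratios of the 4 classes ranged from 0.635 (replicates 1 and 2) to 0.891 (replicates 1 and 3). Of the 136 in all 3 lists, 100 had a base that lay under a peak of every NIN list, and in the other 36 a wide or intermediate peak joined peaks that had no base in common.

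The deficit was larger near coding genes than far from them. Genes were taken from the RefSeq table of assembly MtrunA17r5.0-ANR, and a gene-end window is the stretch from 2000 bp outside to 500 bp inside either end of a coding gene, since the table gives no strand. Such a window held the midpoint of 3787 NIN regions, of which 7.18% were adjacent, against 11.3% of shifted regions that fell in windows, a ratio of 0.636. In gene bodies beyond 500 bp from the ends 7.95% of 2215 regions were adjacent, against 10.3% of shifted ones, a ratio of 0.771. More than 2000 bp from genes the shares were 5.36% of 11192 regions and 6.01% of shifted ones, a ratio of 0.893.

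Width and chromosome moved the ratio less evenly. It was 0.713 for NIN regions under 500 bp, 0.667 from 500 bp to under 1000 bp, 0.868 from 1000 bp to under 2000 bp and 0.702 for those of 2000 bp or more. It was below 1 on all 8 chromosomes, from 0.591 on chromosome 2 to 0.826 on chromosome 6. The share of NIN regions that were adjacent ranged from 3.65% on chromosome 6, which has 15.8 LSH1 regions per Mb, to 7.96% on chromosome 5, which has 42.6 per Mb. The other chromosomes had 37.2 to 49.3 LSH1 regions per Mb and 5.30 to 7.43% adjacent NIN regions. Chromosome 4 held the largest number, 201, and chromosome 6 the smallest, 90.

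**Figure D3:**
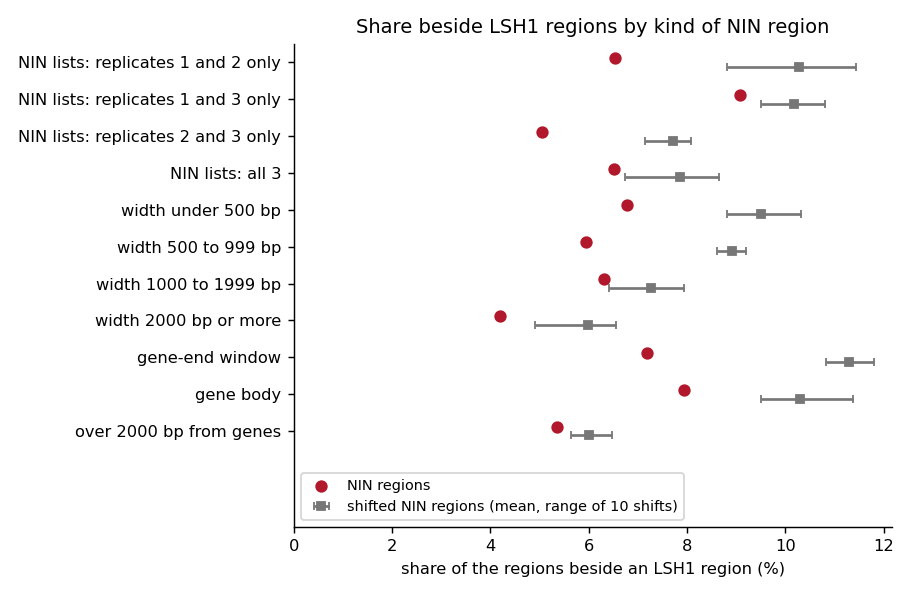
Share of NIN regions beside an LSH1 region (%, circles) and of shifted NIN regions of the same kind (squares, mean, with the range of 10 shifts), by the NIN lists behind a region, by its width and by its position relative to coding genes. The circles lie below the squares in every kind, with the widest gap in gene-end windows, 7.18% against 11.3%.

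The adjacent regions resembled other NIN regions in width and in place in the lists. Their median width was 729.5 bp, against 759 bp for NIN regions without an LSH1 region within 2000 bp. Regions over 2000 bp made up 6.30% of the adjacent set and 9.49% of the others. Peaks carry a running number in each list, read here as a rank of unnamed measure, and a peak's place is this number as a percentage of the number of peaks listed, low for the peaks that come first. The peaks inside adjacent regions had a median place of 51.6, 47.9 and 32.9% in NIN lists 1 to 3, against 47.6, 46.0 and 32.5% for peaks in NIN regions without an LSH1 region within 2000 bp. The difference of 2.10 ± 1.84 percentage points (SD, n = 3) had the same sign in 3 of 3 lists and did not pass the two-sided exact sign-flip test, p = 0.25, the smallest that 3 lists allow (adjusted p = 0.312 after Benjamini and Hochberg over the 5 planned tests). It rested on single lists: it was 0.135 points without NIN replicate 1, 5.28 without NIN replicate 3, 0.858 without LSH1 replicate 3 and 0.826 without LSH1 replicate 4.

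With each NIN list cut into 5 equal stretches, the share of peaks beside LSH1 regions was lowest in the first stretch. The first and last stretches had 8.57% and 10.4% in NIN list 1, 5.01% and 6.57% in NIN list 2, and 7.28% and 9.77% in NIN list 3. Shifted peaks also had lower shares in the first stretch than in the last. First and last stretches had ratios of 0.788 and 0.930 in list 1, 0.599 and 0.698 in list 2, and 0.870 and 0.894 in list 3. The ratio did not rise steadily between them: it was lowest in stretch 3 of list 1, at 0.784, and in stretch 4 of list 3, at 0.865.

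Partner regions were much like other LSH1 regions in place, and narrower by a little. Their median width was 541.5 bp, against 581 bp for the other LSH1 regions, and 25.8% of them were in all 4 lists, against 27.8%. Of the 253 partners in all 4 lists, 234 had a base under a peak of every LSH1 list. The median place of peaks in partner regions differed from that of other LSH1 peaks by 0.305 ± 0.399 percentage points (SD, n = 4), with 2 lists on either side of 0 (two-sided exact sign-flip test, p = 0.50, adjusted p = 0.50).

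Within the pairs, the NIN side lay in gene-end windows less often than the LSH1 side. Midpoints of 26.8, 25.2 and 25.4% of the peaks in adjacent regions lay in gene-end windows in NIN lists 1 to 3, against 37.5, 39.3, 37.3 and 40.4% of the peaks in partner regions in LSH1 lists 1 to 4. The values of the NIN and LSH1 lists did not overlap, with means of 25.8% ± 0.840 (SD, n = 3) and 38.6% ± 1.51 (SD, n = 4) and a difference of -12.8 percentage points. The two-sided exact permutation test over the 35 splits of 7 lists gave p = 0.0286, the smallest it can give, and an adjusted p of 0.143 over the 5 tests, so the difference did not pass the adjustment. Over all regions the proteins also differ in this share, at 22.0% of NIN and 48.5% of LSH1 regions. The test therefore cannot tell a trait of the pairs from this general difference. The difference within the pairs changed with the distance limit: with adjacency limited to 500 bp it was -3.85 points (exact permutation p = 0.171), and with 5000 bp it was -17.7 points (exact permutation p = 0.0286). Midpoints that lie close together can fall in the same window, and how much this narrows the difference at short limits was not tested. Leaving out any 1 list kept the difference between -15.0 and -10.6 points, where fewer lists cannot reach a p below 0.0667.

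In this measure both sides of the pairs stood between the remaining NIN regions and the remaining LSH1 regions. Peaks in adjacent NIN regions lay in gene-end windows more often than peaks in the other NIN regions, which had 24.7, 20.6 and 21.0% in lists 1 to 3. That difference of 3.69 ± 1.39 percentage points (SD, n = 3) was positive in 3 of 3 lists (two-sided exact sign-flip p = 0.25, adjusted p = 0.312), and without NIN replicate 3 it was 0.338 points. Peaks in partner regions lay in gene-end windows less often than peaks in the other LSH1 regions, which had 50.6, 51.6, 48.2 and 49.6% in lists 1 to 4. Here the difference was -11.4 ± 1.73 percentage points (SD, n = 4), negative in 4 of 4 lists (two-sided exact sign-flip test at the smallest p that 4 lists allow, adjusted p = 0.312). Neither difference passed, and the exact sign-flip test cannot pass with 3 or 4 lists.

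**Figure D4:**
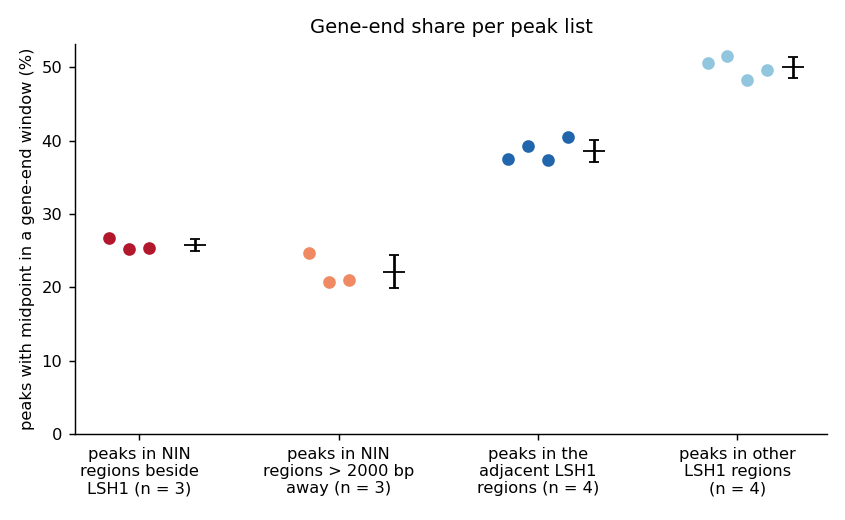
Peaks with their midpoint in a gene-end window (%) per list, for peaks in NIN regions beside LSH1 regions and in NIN regions over 2000 bp away, and for peaks in the adjacent LSH1 regions and in the other LSH1 regions; bars are mean and SD over 3 NIN or 4 LSH1 lists. The adjacent NIN peaks at 25.2 to 26.8% and the adjacent LSH1 peaks at 37.3 to 40.4% do not overlap.

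Counted pair by pair, the partner's midpoint was nearer to a gene end in 633 of 1048 pairs (60.4%, 95% exact binomial interval 57.4 to 63.4%, which covers counting error only), the adjacent NIN region in 414, and 1 pair was level. The median distance to a gene end was 2837 bp for adjacent NIN regions and 2269 bp for the partner of each. Among shifted NIN regions beside an LSH1 region, the LSH1 region was nearer in 58.3% (range 55.0 to 60.9% over the 10 shifts), so the observed order of the pairs was within what the shifts gave. In the 563 pairs with either midpoint within 2000 bp of a gene end the partner was nearer in 67.3%, against 61.2% (57.9 to 64.0%) after shifts. Midpoints of shifted regions beside an LSH1 region fell in gene-end windows in 39.1% of cases (36.9 to 40.9%), more often than the 26.0% of adjacent NIN regions, and lay over 2000 bp from coding genes in 36.8% (34.8 to 38.6%), less often than the 57.3% of adjacent NIN regions. The NIN regions without an LSH1 region within 2000 bp were farther from genes than the adjacent ones, with 66.0% over 2000 bp away.

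Adjacent NIN regions overlapped a coding gene in 25.3% of cases, against 20.2% of the other NIN regions, and partner regions in 34.9%, against 46.4% of the other LSH1 regions. In 609 pairs (58.1%) neither region overlapped a coding gene, in 193 (18.4%) both did, in 72 (6.87%) only the adjacent NIN region did and in 174 (16.6%) only the partner. Both regions were classed as over 2000 bp from coding genes in 441 pairs (42.1%). The same coding gene was nearest to both regions in 921 pairs (87.9%), and in 122 pairs (11.6%) an end of a coding gene fell in the gap between them. LSH1 regions flanked 51 of the adjacent regions on both sides within 2000 bp (4.87%), against 6.82% of shifted regions beside LSH1 regions (5.48 to 8.01%).

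The absence of overlap held for regions seen in at least 2 lists, and weaker evidence of the other protein was present at part of the sites. Of the 1048 adjacent NIN regions, 252 (24.0%) overlapped a peak seen in only 1 LSH1 list, with 69, 59, 63 and 78 regions touched by LSH1 lists 1 to 4. This was more than the 9.37% of NIN regions without an LSH1 region within 2000 bp, and above the 18.3% (16.5 to 20.4%) of shifted regions beside LSH1 regions. Those other NIN regions also exceeded their own shifts, which gave 6.55% (6.25 to 6.79%), so an excess over shifts was not particular to the adjacent set. Among adjacent regions the share was 32.0% at edge distances of 1 to 250 bp and 18.9% above 1500 bp. Of the 982 partner regions, 305 (31.1%) overlapped a NIN peak in turn, against 15.9% of the other LSH1 regions that no NIN region overlaps. The partners here include those that another NIN region overlaps, which the comparison leaves out, so these shares are not of like sets. NIN list 3 touched 235 of the partners, NIN list 1 touched 66 and NIN list 2 touched 87. In 79 pairs the partner overlapped another NIN region seen in at least 2 lists. Pairs in which no peak of any LSH1 list lay on the NIN region and no peak of any NIN list lay on the partner numbered 541 (51.6%). With the stricter rule that a peak of any LSH1 list counts as overlap, 796 adjacent regions were left and their ratio to shifted regions was 0.676.

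A set of 28 pairs had the adjacent region in all 3 NIN lists and the partner in all 4 LSH1 lists. Region coordinates are those of the peak lists, counted from 1, and the genes named are the nearest coding genes of the table, which gives no product for them. In 4 of the 5 closest of these pairs both regions shared the nearest gene.

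The closest lay on chromosome 4, a NIN region at 55682705 to 55684091 and an LSH1 region at 55681279 to 55682407, with an edge distance of 298 bp, 17263 bp from LOC112420996. Its NIN peaks had places of 85.5, 22.7 and 23.8% in lists 1 to 3 and its LSH1 peaks places of 2.67, 9.87, 10.1 and 9.57% in lists 1 to 4. No peak of a single list bridged this pair, although the NIN peaks of replicates 1 and 2 were joined only through the wider peak of replicate 3.

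The second, on chromosome 2, had a NIN region at 40490542 to 40491565 and an LSH1 region at 40491867 to 40493311, at an edge distance of 302 bp and 6448 bp from LOC11407113. All 4 LSH1 lists had the partner near their beginning, at places of 1.25, 1.16, 2.46 and 3.93%, while the NIN places were 69.7, 11.2 and 20.7%. Here LSH1 lists 1 and 3 each had a further small peak that reached the NIN region, and NIN lists 1 and 3 each had one on the partner. These NIN peaks on the partner overlapped each other, so by the merging rule the partner was itself overlapped by another NIN region.

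The third, also on chromosome 2 (NIN 1563065 to 1564170, LSH1 1562003 to 1562689, edge distance 376 bp), was the one of the 5 with different genes: the NIN region overlapped LOC11419786 and the partner LOC11430346. The fourth, on chromosome 3 (NIN 26036046 to 26036419, LSH1 26036809 to 26037378, 390 bp apart), lay 9471 bp from LOC11440532 and had the narrowest NIN region, 374 bp. Its NIN places were 58.6, 36.4 and 3.97%. The LSH1 places were 94.1, 24.3, 33.7 and 34.4%, so that LSH1 list 1 put the partner near its end. The fifth, on chromosome 5 (NIN 2462648 to 2465145, LSH1 2458452 to 2462182, 466 bp apart), had both regions over LOC11429102. Its partner was 3731 bp wide and stood among the first peaks of each LSH1 list, at places of 0.243, 0.338, 0.459 and 0.380%. By contrast, the NIN places of this pair were 40.3, 49.6 and 11.2%. The NIN peaks of lists 1 and 2 were joined only through the wide peak of list 3.

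**Figure D5:**
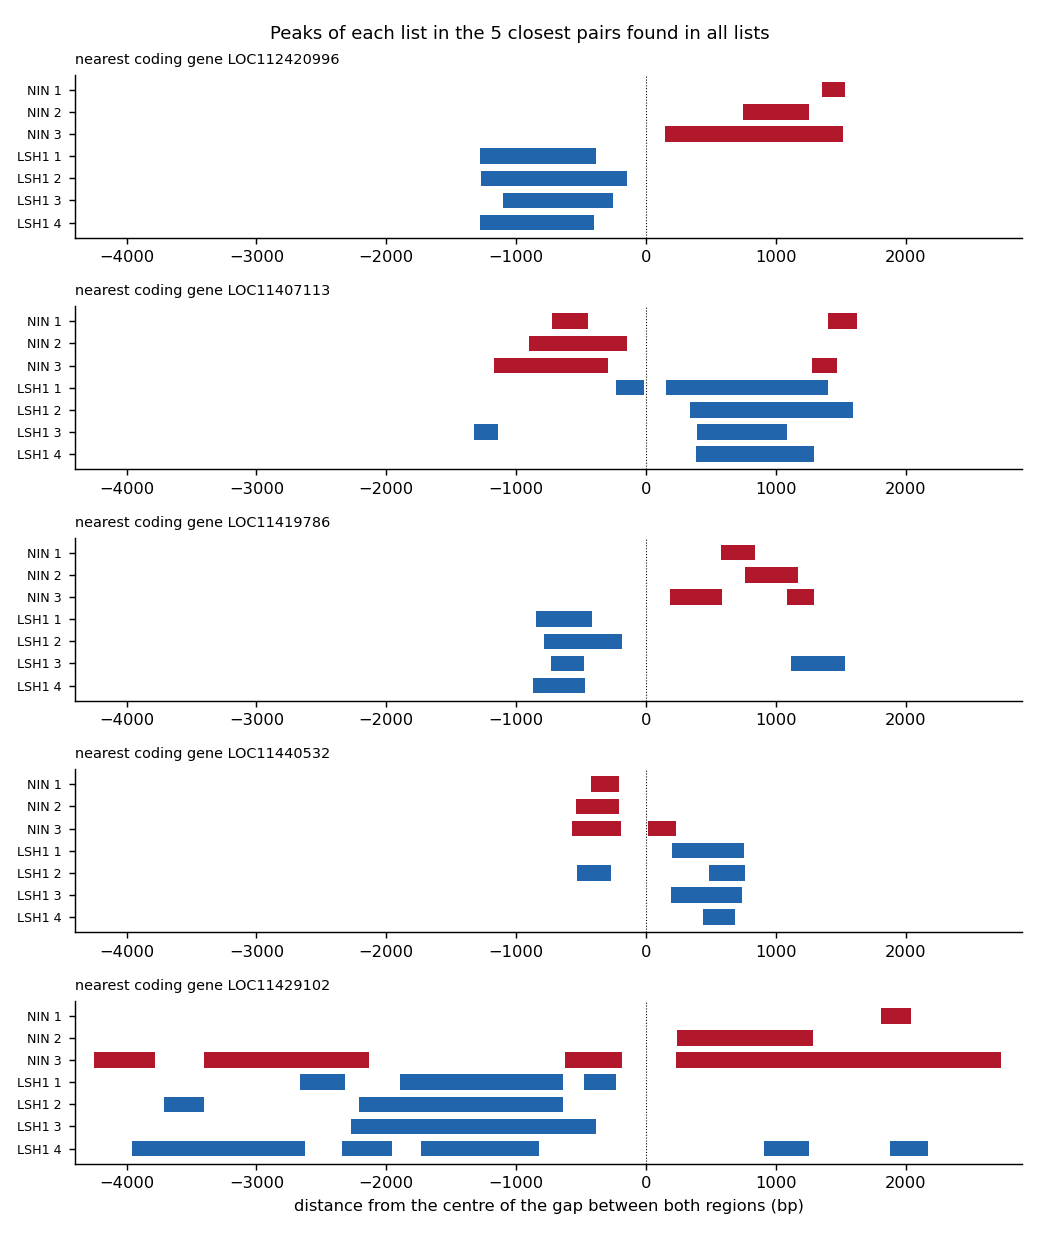
Peaks of each NIN list (top 3 rows of each panel) and LSH1 list (lower 4 rows) in the 5 closest pairs found in all lists, drawn to scale against distance from the centre of the gap between the regions (bp). The peaks of all lists fall on opposite sides of the gap in the first pair, at an edge distance of 298 bp, while the others also show further peaks on the far side. In the second pair the far-side peaks of NIN lists 1 and 3 overlap each other.

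Ordered by the mean place of the NIN region instead, the first of the 28 pairs had a NIN region of 5807 bp on chromosome 2 (29161705 to 29167511) with places of 2.67, 6.16 and 7.49% in NIN lists 1 to 3, 9010 bp from LOC25486737. Its width came from NIN list 3, whose peak spanned 5807 bp against 321 and 387 bp in lists 1 and 2. The partner (29159971 to 29160790) had places of 10.4, 5.47, 91.2 and 18.8%, so that LSH1 list 3 put it near its end. The second, on chromosome 8 (NIN 44049632 to 44050385, LSH1 44047278 to 44049060, 572 bp apart), lay 1447 bp from LOC11443109, which the partner overlapped. The partner stood at places of 1.06, 1.22, 1.38 and 1.41% of the LSH1 lists and was thus high in all 4, while the NIN places spread over 1.73, 10.2 and 21.7%. In the third, on chromosome 1 (NIN 36565283 to 36568972, LSH1 36562471 to 36563395), the partner overlapped LOC25484375 and the NIN region lay 2433 bp from it.

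The other 7 of these first 10 had mean NIN places of 16.8 to 32.0% and edge distances of 859 to 1933 bp. Their nearest genes were LOC25495709, LOC11445934, LOC11425703, LOC11425099, LOC11422364, LOC25486665 and LOC25490255. At LOC25495709, LOC11422364 and LOC25486665 the partner overlapped the gene while the NIN region lay 2590, 1816 and 1992 bp from it, as at LOC11443109 and LOC25484375. The NIN region overlapped the nearest gene in none of the 10 and the partner in 5, where 25.3% of all adjacent regions and 34.9% of all partners overlapped a coding gene, and 10 pairs are too few to set apart from these shares.

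Of 31728 coding genes, 456 (1.44%) were overlapped by an adjacent NIN region or had its midpoint in a gene-end window. In windows alone there were 289 genes (0.911%). Partner midpoints fell in the windows of 390 genes (1.23%), and 137 genes (0.432%) had both. Of the 462 genes with a NIN region and an LSH1 region in their windows, 156 (33.8%) had an adjacent NIN region there and 129 had a NIN region that overlapped LSH1.

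Of 107 names on 6 lists of symbiosis and hormone genes, 29 were matched by symbol or synonym in the table, and 3 of the 29 had an adjacent NIN region by the rule that 1.44% of all coding genes met. They were MtN13 and LB6 among 8 nodulins and leghemoglobins, and D27 among 5 genes of mycorrhizal symbiosis. None of 9 genes of nodulation signalling and infection had one (NFP, DMI3, IPD3, NSP1, NSP2, ERN1, ERN2, VPY and PUB1), nor had 3 of nodule identity and development (NOOT1, NOOT2 and CCS52A), 2 of autoregulation (SUNN and RDN1) or 2 DELLA genes of gibberellin response. With so few matched genes no list can be set apart from the background.

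At MtN13 (LOC25494100), a nodulin of the PR10 family, the NIN region overlapped the gene (chromosome 4, 58195836 to 58196338) and its partner lay 297 bp away (58196635 to 58197200). Peaks of 2 NIN lists made up the NIN region, at a mean place of 79.0%, and peaks of all 4 LSH1 lists the partner, at 44.1%. At LB6, a leghemoglobin that binds oxygen in nodules, the NIN region (chromosome 5, 29183191 to 29183952) stood 327 bp off, with peaks of 2 lists at a mean place of 33.4%. Its partner (29181024 to 29182461), 730 bp from it and in 3 lists, overlapped the neighbouring gene LOC11435508. At D27 (LOC25485781), which encodes a carotenoid isomerase of strigolactone synthesis, both regions overlapped the gene: the NIN region (chromosome 1, 35376115 to 35378216) had peaks of all 3 lists (mean place 56.8%), and the partner (35378916 to 35379415), 700 bp away, was in 3 of 4 lists with 50.1%. None of these regions stood near the beginning of the lists. At MtN13 and D27 a peak of a single LSH1 list also lay on the NIN region, and a NIN peak lay on the partner.

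Among genes with no adjacent region, the nearest one lay 13657 bp from NFP, a Nod factor receptor, 37800 bp from SUNN, the receptor kinase of autoregulation, and 50088 bp from NOOT1, a regulator of nodule identity. NOOT1 itself was overlapped by an LSH1 region, and its nearest NIN region lay 11022 bp away. DMI3, IPD3, NSP1, NOOT2, DELLA1 and DELLA2 were likewise overlapped by an LSH1 region, with the nearest NIN region 5383 to 76457 bp away. The reverse held at ENOD11, an early nodulin, and at RAM2, an acyltransferase of mycorrhizal symbiosis, which a NIN region overlapped with the nearest LSH1 region 80194 bp and 26218 bp away. In all, NIN regions overlapped 4 of the 29 matched genes and 9.60% of all coding genes, and LSH1 regions 10 of the 29 and 19.8% of all coding genes.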

How the data were processed

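The authors deposited 7 peak lists, which give the chromosome, both ends and a running number of every peak. The tools were Bowtie2, Picard, MACS2 and ChIPseeker, per the submitters' processing notes, and the list names give narrow peaks at a q cutoff of 0.05. Their versions and settings are not given here, nor is the build. Peaks were called per replicate, per the labels, from 1 immunoprecipitation and its control, and no sequence, strand or exon structure was used here. Gene ends lay within 500 bp of 28.0% of LSH1 midpoints, against 16.8 to 18.2% with displaced genes (1000, 5000 and 20000 bp, both directions), so lists and gene table were used together, and no gene coordinates are printed.

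Merging, edge distances, shifts (circular, chromosome length taken as the last peak or gene end) and exact tests over lists were written in Python 3.11.15 with numpy 2.4.6 and pandas 2.3.3, and were tested on planted regions and brute-force distances. Shifted regions give no p-value. Planned sequence features were not analysed here. Members, gene lists and tests were chosen with earlier results of these data known. Named pairs are the 10 best-placed and 5 closest of those in all lists, and list genes with an adjacent region. Genes with the nearest distances in the last paragraph of results were picked after their values were seen. Alternatives were other distance limits, numbers of lists, overlap rules, widths, windows and shifts, the first 5000 peaks, no chromosome 6, and each list left out. Those for the ratio at 1 to 250 bp, for the nearer side of a pair and for single-list overlaps were chosen after seeing the data.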

Additional observations from a re-analysis of the deposited data

Results flagged for a closer look

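The difference in gene-end share between peaks of a pair and the remaining peaks of the same protein had opposite signs for the proteins. It was 3.69 ± 1.39 percentage points for adjacent NIN regions against other NIN regions (SD, n = 3 lists, positive in 3 of 3) and -11.4 ± 1.73 points for partner LSH1 regions against other LSH1 regions (SD, n = 4 lists, negative in 4 of 4). The differences of the proteins were 15.1 points apart. This gap was picked out because all lists of NIN went one way and all lists of LSH1 the other, and no test of it is used: both sets were chosen by lying near each other, and over all regions the 2 proteins differ in this share, at 22.0% of NIN regions and 48.5% of LSH1 regions. A permutation of the lists, computed for this gap and for the like gap in place beside the 5 planned tests, is void for that reason. Among the 4 LSH1 lists no list was outlying in any of 9 measures, and groups of 3 lists were not checked.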

How the results depend on the processing

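The number of adjacent NIN regions followed the settings: 225, 498 and 2672 at limits of 500, 1000 and 5000 bp, 34 with peaks in all lists, 24236 with peaks in any 1 list, 24 with the first 5000 peaks of each list, and 180 to 893 with 1 list left out. The ratio to shifted regions was below 1 under all 19 alternatives run. It moved by more than the SD between NIN lists to 0.569 at 500 bp, 0.913 with any 1 list and 0.864 without NIN replicate 2, the highest of 0.684 to 0.864 with 1 list left out. At 1 to 250 bp it was 0 with peaks in all lists (no region observed), 0.655 with any 1 list, 0.732 with the first 5000 peaks, and 0.308 to 0.447 with 1 list left out.

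The gene-end difference of adjacent NIN and partner LSH1 peaks kept its sign under all 19 alternatives, and the proteins differ in the same direction over all regions. It did not pass after adjustment, and its unadjusted p, below 0.05 with the settings of the report, was above it at 500 bp (-3.85 points, exact permutation p = 0.171), at 1000 bp (-8.93 points, p = 0.0571, exact) and with the first 5000 peaks (-23.8 points, p = 0.0571, exact). With the replicate block it was -12.2 points (exact sign-flip p = 0.25, the smallest that 3 pairs allow), but deviations of same-numbered lists over 100 kb bins correlated by only 0.0297, 0.0208 and -0.0785, so nothing shows that numbers link the proteins. Leaving out 1 list gave -15.0 to -10.6 points, too few lists to pass. The place difference of adjacent and other NIN peaks was 0.135 to 5.28 points with 1 list left out. The gene-end difference of adjacent and other NIN peaks was 0.338 to 4.68 points with 1 list left out and turned to -9.95 with peaks in all lists. The place difference of partner and other LSH1 peaks had no stable sign: -0.0787 at 1000 bp, -0.469 at 5000 bp, -4.76 with all lists, and -1.84 to 2.18 with 1 list left out. The cause of these changes was not tested, beyond the fewer regions or lists in each. Read depth is unknown, so regions without a peak cannot be told apart from regions under the caller's cutoff.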

Other observations

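Few adjacent NIN regions lay over annotated genes that code for no protein. Long non-coding RNA genes were overlapped by 16 of them (1.53%), against 1.69% of NIN regions without an LSH1 region within 2000 bp, and pseudogenes by 19 (1.81%), against 1.88%. Small nucleolar RNA genes were overlapped by 1 adjacent NIN region and by 49 of the other NIN regions (0.313%), and tRNA genes by 0 and by 12. Within 5000 bp of an annotated rRNA gene lay 1 of the 1048 adjacent regions, 9 of the 15675 NIN regions without an LSH1 region within 2000 bp and 10 of the 471 NIN regions that overlapped LSH1 regions.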
